A study of Canis lupus familiaris with 2 samples.

Results

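The 6 genes described here encode the subunits of transducin, the G protein that carries the light signal in photoreceptors. The rod set was GNAT1 (alpha), GNB1 (beta) and GNGT1 (gamma), and the cone set was GNAT2 (alpha), GNB3 (beta) and GNGT2 (gamma). They were taken by name, 6 of the 34981 gene names listed for one dog and of the 19930 listed for the other, and each was present in both dogs as a single row. In the second dog these rows carried the identifiers ENSCAFG00000010764 (GNAT1), ENSCAFG00000019216 (GNB1), ENSCAFG00000002044 (GNGT1), ENSCAFG00000019823 (GNAT2), ENSCAFG00000014655 (GNB3) and ENSCAFG00000016918 (GNGT2). Single cells came from punches of the neuroretina of 2 male dogs, N350 and N354, both 40 weeks old and of normal or wild-type genotype, with no treatment, so that the comparisons are between cell classes within these dogs. In the droplet assay used, the 3′ end of an mRNA is joined to a random tag, its unique molecular identifier or UMI, and 1 UMI stands for 1 captured molecule.

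Transducin is a heterotrimer in the outer segment. Light-activated opsin makes its alpha subunit exchange GDP for GTP, and the freed alpha subunit removes the inhibitory subunits of phosphodiesterase 6, so that cyclic GMP falls and the cation channels close. The beta and gamma subunits form a stable dimer that anchors the alpha subunit to the membrane. Bipolar cells of the ON type receive the photoreceptor signal through the glutamate receptor GRM6 and a G protein of the Go kind, with GNAO1 as its alpha subunit and GNB3 and GNG13 as its beta and gamma subunits. GNB3 is therefore known from cones and from ON bipolar cells, and GNB1 from most cell types of the body.

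The files held 24030707 UMIs in 8900 cells of N350, with 1298 in the median cell, and 9711202 UMIs in 4392 cells of N354, with 1204.5 in the median cell. The dogs were counted on different gene annotations, so that a difference in level between dogs cannot be told apart from a difference in annotation. The barcodes of 6 cells occurred in both dogs. Cells were assigned to classes by raw UMIs of marker genes, none of them a transducin subunit, and not by the authors' own annotation. The rods of N350 and N354 numbered 4853 and 3009, the cones 335 and 193, the ON bipolar cells 275 and 244, and the Müller glia 681 and 234. Smaller classes were OFF bipolar cells (55 and 38), horizontal cells (106 and 17) and amacrine cells (270 and 26). Ganglion cells (24), microglia (11) and vascular cells (30) reached 10 cells in N350 only. No class was given to 2203 cells of N350 and 597 of N354, and 43 and 16 more passed for several classes. In rods, cones, ON bipolar cells and Müller glia of both dogs, every marker listed for the class was above its rate over all cells. The gate used these same markers, so this is no independent check of the classes. Rods were gated on the 7 rod markers that were listed for both dogs. A level is the number of UMIs of a gene per 10000 UMIs in the pooled cells of 1 class and dog, with its exact Poisson 95% interval in brackets. These intervals cover counting error only.

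The rod subunits had their highest level in rods in both dogs. GNAT1 stood at 31.7 (31.2 to 32.1) in rods of N350 and 49.7 (48.9 to 50.4) in rods of N354, a mean of 40.7 ± 12.7 (SD, n = 2). It was at 2.16 (1.95 to 2.40) and 4.12 (3.68 to 4.61) in cones, and at 1.12 (1.03 to 1.21) and 2.22 (1.997 to 2.47) in Müller glia. The lowest rod value was thus above the highest value of any other class with at least 10 cells, which was 6.11 (4.75 to 7.73) in OFF bipolar cells of N354. GNB1, the beta subunit of rod transducin, was at 13.6 (13.3 to 13.9) and 18.5 (18.0 to 18.9) in rods and at 1.05 (0.902 to 1.22) and 1.57 (1.30 to 1.88) in cones. The gamma subunit GNGT1 reached 91.3 (90.5 to 92.0) and 255 (253 to 256) in rods, against 8.27 (7.84 to 8.72) and 21.4 (20.4 to 22.5) in cones. Rods and other classes did not overlap for any of the 3 genes, and how often this holds over all genes was not counted. Below rods, OFF bipolar cells came next in both dogs for GNAT1 and GNGT1, but in N354 a few cells carried this rank. In N354, 6 of 38 OFF bipolar cells, those with 0.5% or more of their UMIs on rod markers, held 76.8% of the GNAT1 and 67.0% of the GNGT1 UMIs of the class. In the other 32 cells GNAT1 was at 1.76 (1.01 to 2.86) and GNGT1 at 10.7 (8.65 to 13.02), beside 1.90 (1.68 to 2.13) and 10.8 (10.3 to 11.3) in Müller glia treated in the same way. In N350, 8 of 55 OFF bipolar cells were as high in rod markers and held 58.1% and 47.5% of these UMIs. The rest there were at 2.02 (1.20 to 3.19) and 7.06 (5.42 to 9.03). Cones treated alike were lower, at 1.22 (1.04 to 1.41) and 4.66 (4.31 to 5.03), as were ON bipolar cells, at 1.25 (0.995 to 1.54) and 5.20 (4.67 to 5.77). Of these, only GNGT1 in cones had an interval apart from that of OFF bipolar cells. Müller glia of N350 treated alike were apart for both genes, at 1.03 (0.946 to 1.12) and 3.10 (2.95 to 3.25). In N354, ON bipolar cells treated alike were apart for GNGT1, at 5.14 (4.56 to 5.76), but not for GNAT1, at 1.13 (0.867 to 1.44). Cones there overlapped for both, at 1.86 (1.53 to 2.24) and 10.02 (9.23 to 10.9).

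The cone subunits had their highest level in cones. GNAT2 was at 19.3 (18.65 to 19.98) in cones of N350 and 10.1 (9.38 to 10.8) in cones of N354. Its next level was 0.183 in the vascular cells of N350, from 4 UMIs, and rods held 0.126 (0.0993 to 0.158) and 0.0274 (0.0131 to 0.0503). GNGT2 was at 28.5 (27.7 to 29.3) and 33.1 (31.8 to 34.5) in cones, and no other class with at least 10 cells exceeded 0.380 (0.0460 to 1.37). Both genes were therefore in cones at levels well above those of every other class, and among those classes the intervals of neighbours in the order of levels overlapped in N350. Rods there were still apart from Müller glia, which held 0.0364 (0.0222 to 0.0562) of GNAT2. For GNGT2, rods and Müller glia were at 0.267 (0.227 to 0.311) and 0.0528 (0.0354 to 0.0758) in N350. In N354 they were at 0.0739 (0.0487 to 0.108) and 0.0128 (0.00155 to 0.0462), also apart. Rods were shallower, with medians of 1085 and 1017 UMIs per cell against 8165 and 6266 in Müller glia. Per cell, rods and Müller glia of N350 held 0.0157 and 0.0294 UMIs of GNAT2 and 0.0332 and 0.0426 of GNGT2. In N354 these were 0.00332 and 0 for GNAT2 and 0.00897 and 0.00855 for GNGT2. Whether rods stood above background RNA was not tested. GNB3 departed from the pattern of GNAT2 and GNGT2. It was highest in cones, at 27.3 (26.5 to 28.1) and 8.56 (7.91 to 9.25), and second in ON bipolar cells, at 12.2 (11.5 to 13.03) and 7.37 (6.70 to 8.08), with 0.764 (0.330 to 1.51) and 0.0885 (0.00224 to 0.493) in OFF bipolar cells. The intervals of cones and ON bipolar cells overlapped in N354 and did not in N350. In the other classes GNB3 was at or under 0.413 (0.189 to 0.783).

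**Figure D1:**
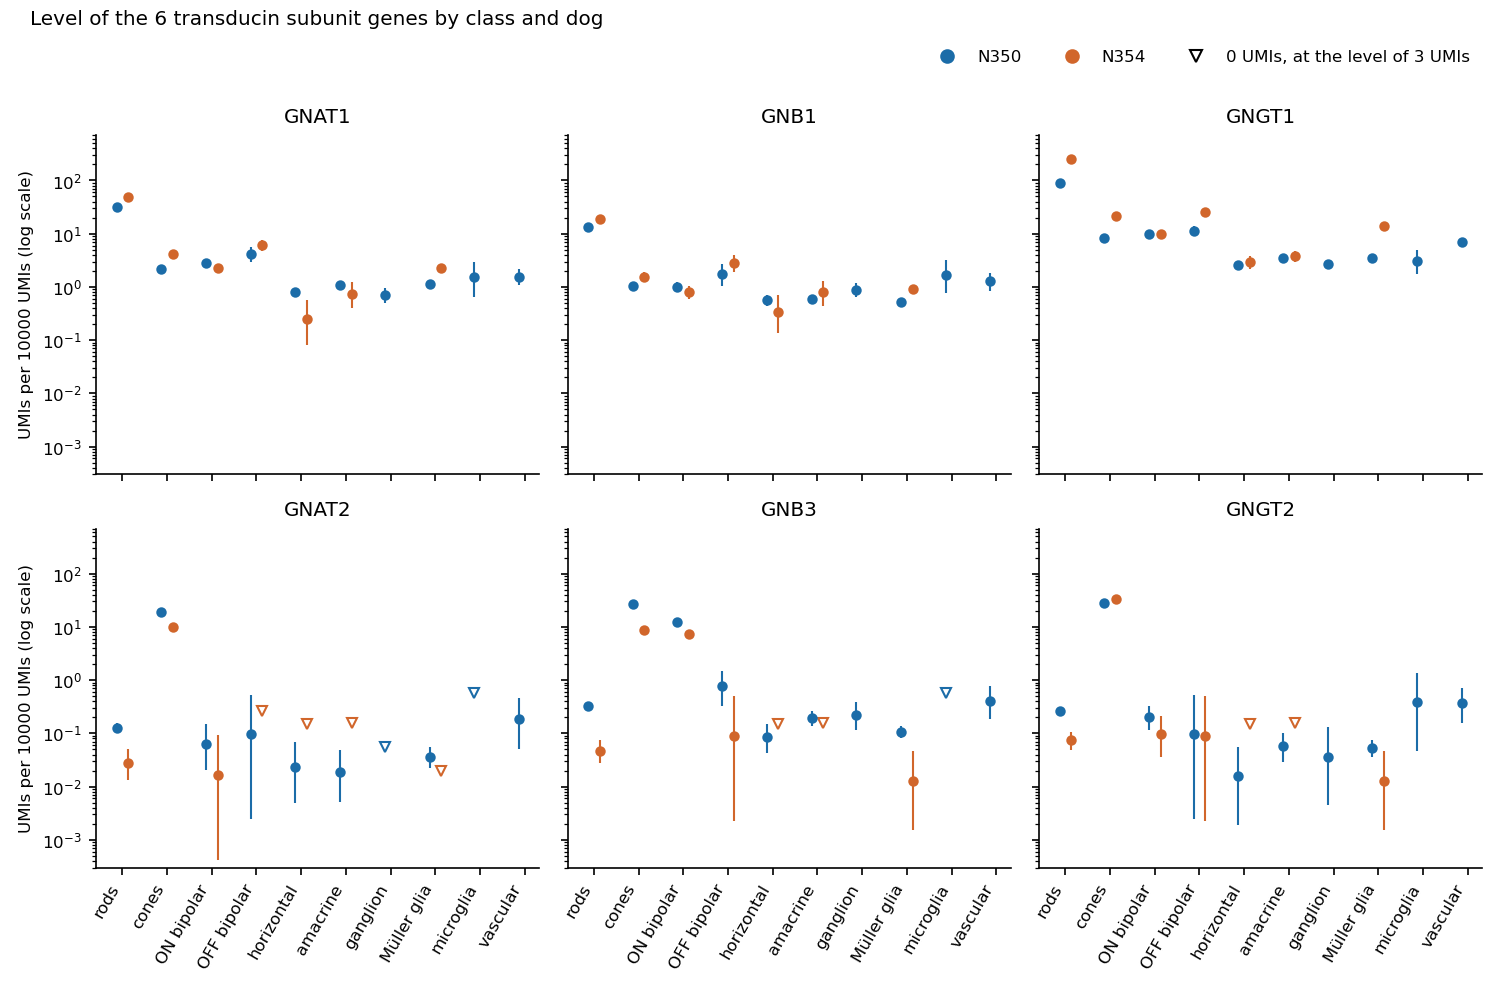
Level of each gene in UMIs per 10000 UMIs (log scale) in the classes with at least 10 cells, with exact Poisson 95% intervals, in N350 (blue) and N354 (orange). Open triangles mark classes with 0 UMIs and stand at the level of 3 UMIs, the limit that a count of 0 allows. The rod subunits (top row) peak in rods, GNAT2 and GNGT2 in cones, and GNB3 in both cones and ON bipolar cells.

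Most molecules of each gene lay in its own class. Rods held 81.6% (81.1% to 82.1%) of all GNAT1 UMIs of N350 and 91.5% (91.1% to 91.8%) of those of N354, as exact binomial 95% intervals. Cones, 3.77% and 4.40% of the cells, held 92.6% (91.7% to 93.4%) and 94.0% of the GNAT2 UMIs and 89.2% and 94.0% of the GNGT2 UMIs. For GNB3 the cones held 71.3% (70.1% to 72.4%) and 54.2% of the UMIs, and the ON bipolar cells held 14.9% (14.0% to 15.8%) and 38.2%. The cells with no class held 11.1% and 3.70% of the GNAT1 UMIs and 2.82% and 1.25% of the GNAT2 UMIs.

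Which subunits differ between the photoreceptor classes was tested on UMI sums per dog and class, with edgeR's quasi-likelihood test and Benjamini-Hochberg adjustment over 12068 genes. With class as the only term, GNAT2 was higher in cones than in rods by 7.43 ± 1.28 on the log2 scale (SE, edgeR adjusted p = 0.0242), and GNGT2 by 7.38 ± 0.94 (edgeR adjusted p = 0.0104). Cones were lower in GNAT1, with a log2 fold change of -3.84 ± 0.57 (edgeR adjusted p = 0.0162), and in GNB1, with -3.76 ± 0.48 (edgeR adjusted p = 0.0104). GNB3, at 6.45 ± 1.5 (edgeR adjusted p = 0.0819), and GNGT1, at -3.70 ± 0.86 (edgeR adjusted p = 0.0835), did not pass. So 4 of the 6 genes passed, 2 higher and 2 lower in cones, where 1.68% of all genes tested did (203 genes), 1.23% higher and 0.447% lower, and the direction of each of the 6 was the same in both dogs. The gate kept cells with raised cone markers out of the rods and asked for rod markers in them, so the size of these differences was partly built in. Since all sums of a dog share 1 animal, the dog was also fitted as a block, and all 6 then passed, GNB3 at 6.52 ± 0.32 (edgeR adjusted p = 1.97e-16) and GNGT1 at -3.67 ± 0.34 (edgeR adjusted p = 4.54e-10), and 27.8% of all genes did. DESeq2 also called all 6, beside 4.5% of all genes. The median log2 fold change over all 12068 genes was -0.26 in edgeR and 0.05 in DESeq2, a shift between scalings that is small beside the changes of the 6 genes. When cells with over 10% of their UMIs on mitochondrial genes were left out, 49 cones remained in N354 and GNAT1 and GNB1 no longer passed (edgeR adjusted p = 0.0628 and 0.0538).

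Müller glia, which have no phototransduction cascade, served as the background class. The rod subunits were higher in rods than in Müller glia by 4.37 ± 0.58 for GNAT1 (edgeR adjusted p = 0.00297), 4.23 ± 0.49 for GNB1 (edgeR adjusted p = 0.002) and 4.07 ± 0.88 for GNGT1 (edgeR adjusted p = 0.0156) on the log2 scale. The cone subunits were higher in cones than in Müller glia by 8.99 ± 1.38 for GNAT2 (edgeR adjusted p = 0.00816), 7.75 ± 1.59 for GNB3 (edgeR adjusted p = 0.0225) and 9.38 ± 1.03 for GNGT2 (edgeR adjusted p = 0.00401). That is 3 of 6 genes in each comparison, all higher in the photoreceptor. Of all genes, 6.29% were higher in rods and 16.1% differed in either direction, and 3.36% were higher in cones and 7.47% differed. The cone subunits in rods over Müller glia stood between 1.3 and 2.0 and did not pass, but all 3 passed with the dog as a block, at 1.51 for GNAT2, 1.21 for GNB3 and 1.89 for GNGT2 (edgeR adjusted p = 0.00212, 0.0064 and 0.000162), in which 59.5% of all genes were called. These fold changes compare shares of UMIs near the floor, and rods were the shallower class in both dogs. Rod subunits did not pass between cones and Müller glia. Their log2 fold changes in cones over Müller glia were 0.53 ± 0.51 (GNAT1), 0.47 ± 0.43 (GNB1) and 0.37 ± 0.78 (GNGT1), with edgeR adjusted p from 0.609 to 0.871, and none passed with the block, in which 43.5% of all genes were called.

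**Figure D2:**
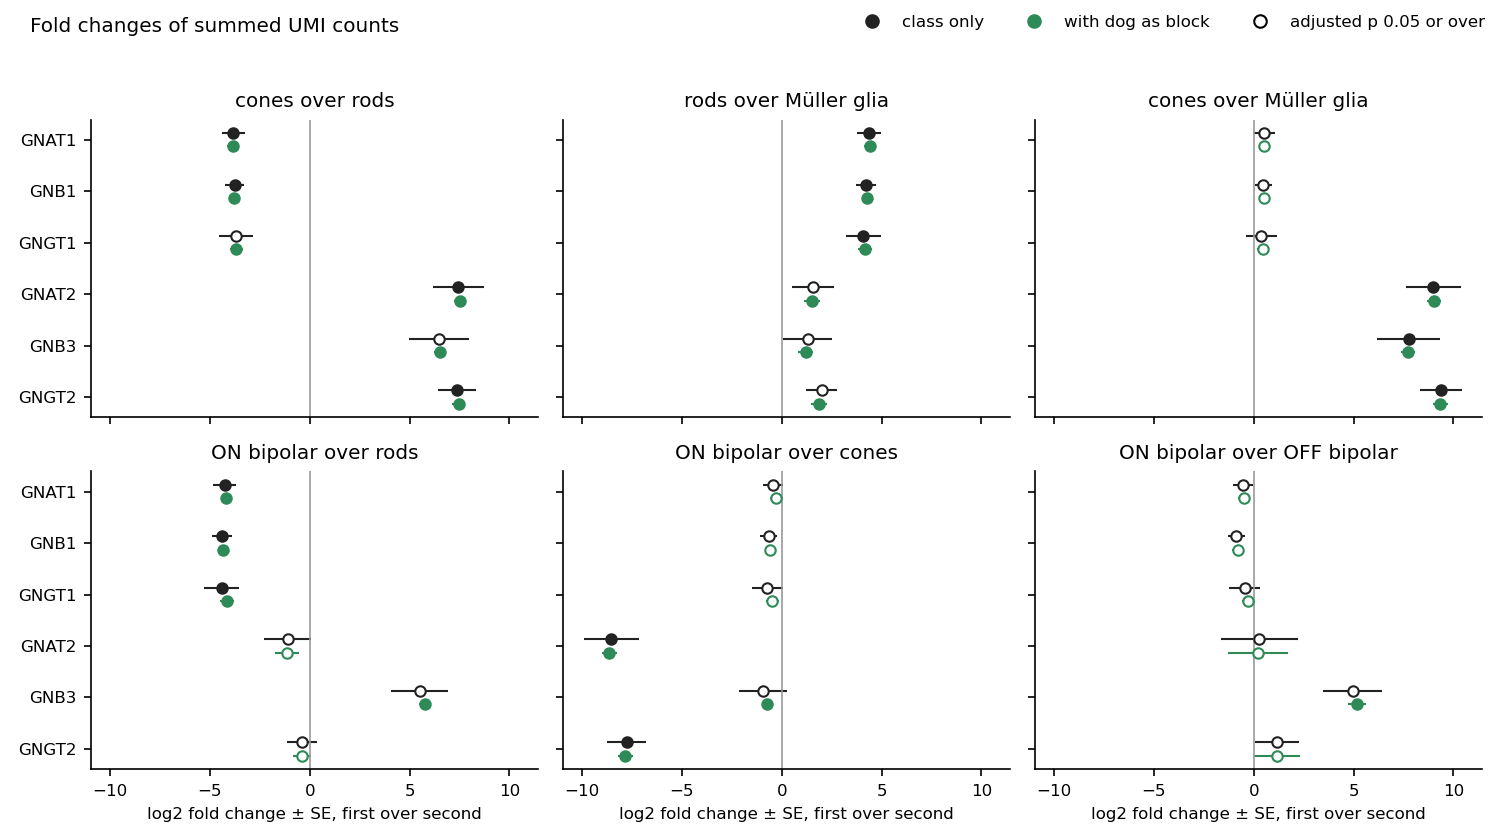
Log2 fold changes with SE of the 6 genes in the 6 comparisons, from sums per class and dog, with class as the only term (black) and with the dog as a block (green); open circles have an adjusted p of 0.05 or over. In cones over rods the rod subunits lie between -3.84 and -3.70 and the cone subunits between 6.45 and 7.43, and GNB3 is the one gene far above 0 in ON bipolar cells over rods.

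Each subunit of a rod trimer has a counterpart in the cone trimer, and their balance within a class was compared next. Because 3′ counts depend on how the annotation covers each transcript end, a ratio of UMIs of different genes is not a ratio of molecules, but this dependence cancels when the same ratio is set between classes of 1 dog. In rods, GNAT1 had 252 (201 to 319) UMIs for each GNAT2 UMI in N350 and 1815 (986 to 3785) in N354, as exact conditional 95% intervals. In cones, GNAT2 had 8.93 (8.01 to 9.97) and 2.44 (2.14 to 2.80) UMIs for each GNAT1 UMI. The GNAT1 to GNAT2 ratio thus changed between rods and cones by 11.1 (10.8 to 11.5) and 12.1 (11.2 to 13.03) on the log2 scale. The beta subunits were similar in this respect, with a change of the GNB1 to GNB3 ratio by 10.1 (9.79 to 10.4) and 11.1 (10.3 to 11.8), and so were the gamma subunits, whose GNGT1 to GNGT2 ratio changed by 10.2 (9.96 to 10.4) and 12.4 (11.8 to 12.9). In each pair the change was larger in N354, but with at most 10% of UMIs on mitochondrial genes N350 had 10.4 (10.05 to 10.7) and N354 10.3 (9.41 to 11.2) for the beta pair. For the gamma subunits the intervals of the 2 dogs did not overlap without that limit. They were also apart with it, at 10.6 (10.3 to 10.9) in N350 and 11.8 (11.2 to 12.4) in N354. Rods were gated as cells of no other class, cones included, with at least 1% of their UMIs on rod markers. The size of the changes between rods and cones was thus partly set by the gate.

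**Figure D3:**
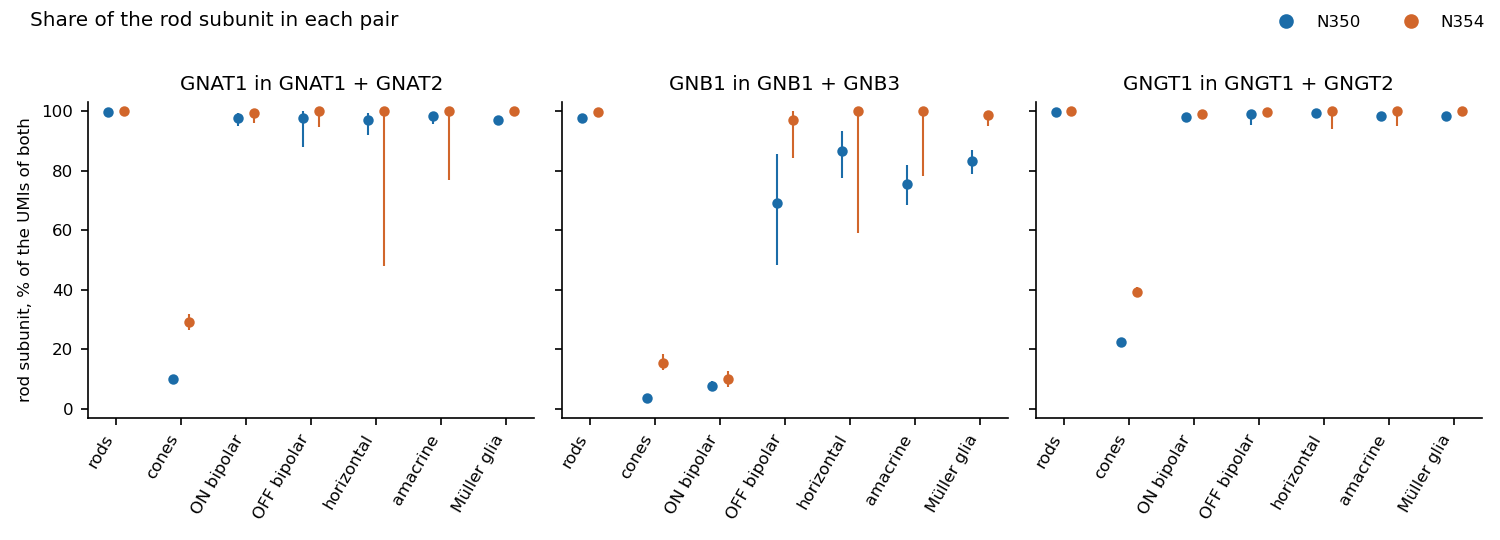
Share of the rod subunit among the UMIs of both subunits of a pair, in percent with exact binomial 95% intervals, by class and dog. Rods lie at 97.7% or more in all 3 pairs and cones between 3.71% and 39.2%. ON bipolar cells lie with cones in the beta pair, at 7.51% and 9.82%. In the other pairs they lie near rods, as do all other classes drawn apart from cones, with much lower levels of GNAT1 and GNGT1 than in rods.

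The balance was also seen in single cells. Rods with more GNAT1 than GNAT2 UMIs made up 92.6% of rods in N350 and 97.3% in N354, and rods with more GNAT2 0.144% and 0.0665%. UMIs of all 3 rod subunits were found in 70.0% (68.6% to 71.2%) of rods of N350 and 81.4% (80.0% to 82.8%) of those of N354, at median depths of 1085 and 1017 UMIs per cell. All 3 cone subunits were found together in 1 of 4853 rods and in 0 of 3009, which allows up to 0.0997% (3 cells) of rods with UMIs of all 3 at this depth. The gate had removed cells with raised cone markers from the rods before this count. It left out no cone for its rod markers, so the counts in cones and in rods cannot be set side by side. All 3 cone subunits were found in 79.1% (74.4% to 83.3%) and 61.1% (53.9% to 68.1%) of cones, at median depths of 4492 and 3302, and all 3 rod subunits in 21.2% (16.9% to 26.0%) and 15.0% (10.3% to 20.9%). In Müller glia, which should lack the rod set, all 3 rod subunits were found in 13.8% (11.3% to 16.6%) and 20.1% (15.1% to 25.8%) of cells, at median depths of 8165 and 6266. The share in cones thus did not lie above that of the deeper Müller glia in N354. Thinned to 1000 UMIs, which left out 60 cones and 9 Müller glia of N354, GNAT1 was found in 19.0% of cones and 12.6% of Müller glia. GNB1 was found there in 10.2% and 6.56%, and GNGT1 in 38.6% and 38.1%. In N350, thinning left out 37 cones and 27 Müller glia, and cones were further above Müller glia. GNAT1 was found there in 22.5% of cones and 10.6% of Müller glia, GNB1 in 13.6% and 5.96%, and GNGT1 in 45.1% and 24.2%.

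Some cells gated as cones had more UMIs of a rod subunit than of its cone counterpart. For the alpha pair these were 52 of 335 cones (15.5%) in N350 and 37 of 193 (19.2%) in N354, for the gamma pair 86 (25.7%) and 49 (25.4%), and for the beta pair 14 in each dog. Such cones also had more UMIs on the rod markers used in the gate. The 7 rod markers took a median of 0.858% of the UMIs of cones with more GNAT1 than GNAT2 in N350, against 0.0594% in cones with more GNAT2, and 0.475% against 0.0515% in N354. They were shallower as well, with medians of 1694.5 against 6796 UMIs per cell in N350 and 1659 against 5137 in N354. Across cones, the rod subunits were concentrated in the cells with 0.5% or more of their UMIs on rod markers. These were 26.9% of the cones of N350 and 19.2% of those of N354, and they held 52.7% and 64.6% of the GNAT1 UMIs of the class, 53.7% and 65.8% of the GNB1 UMIs and 52.7% and 63.2% of the GNGT1 UMIs. In the remaining 245 and 156 cones GNAT1 was at 1.22 (1.04 to 1.41) and 1.86 (1.53 to 2.24), beside 1.03 (0.946 to 1.12) and 1.90 (1.68 to 2.13) in Müller glia treated in the same way. GNGT1 was at 4.66 (4.31 to 5.03) and 10.02 (9.23 to 10.9) in these cones, against 3.10 (2.95 to 3.25) and 10.8 (10.3 to 11.3) in Müller glia, so that its intervals were apart in N350 and overlapped in N354. Without the cells high in rod markers, a choice made after seeing the data, cones over rods had a log2 fold change of -4.74 ± 0.52 for GNAT1 (edgeR adjusted p = 0.00499) and -4.59 ± 0.79 for GNGT1 (edgeR adjusted p = 0.0210), so that GNGT1 then passed. These cells were left out of cones by rod markers, of which rods needed at least 1%, so a larger difference was partly built in. In ON bipolar cells the picture was similar, and 28 cells (10.2%) of N350 and 15 (6.15%) of N354 with as many rod-marker UMIs held 61.4% and 53.6% of the GNAT1 UMIs of the class. The part of RNA from rods in the rod subunits of cones and ON bipolar cells was not tested.

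**Figure D4:**
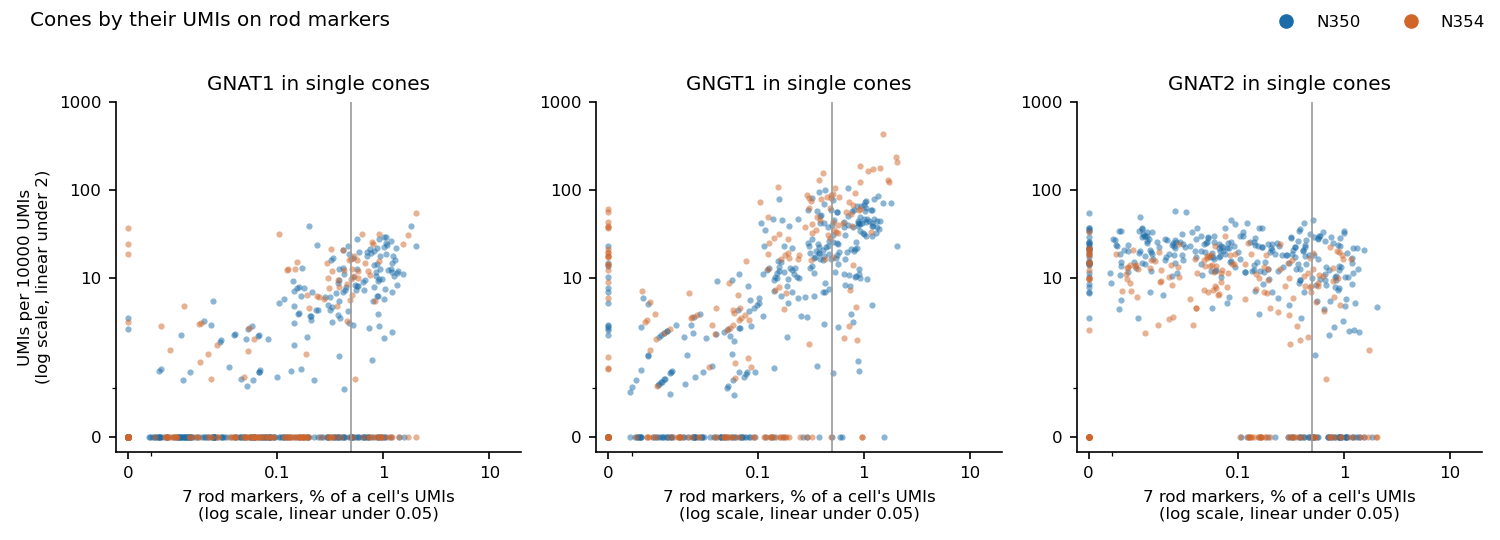
Single cones of N350 (blue) and N354 (orange), with the percentage of their UMIs on the 7 rod markers on the horizontal axis and the level of GNAT1, GNGT1 or GNAT2 in UMIs per 10000 UMIs on the vertical axis (log scales, linear near 0). GNAT1 and GNGT1 are high mostly in cones with many rod-marker UMIs, and the grey line marks 0.5%, above which 90 cones of N350 and 37 of N354 lie.

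In Müller glia the rod subunits were compared with other rod genes, each as a percentage of its level in rods. In N350, GNAT1 was at 3.53% (3.26% to 3.83%), GNGT1 at 3.80% (3.63% to 3.98%) and GNB1 at 3.89% (3.45% to 4.37%) of their level in rods. Rod arrestin (SAG) was at 3.15% (3.01% to 3.31%) there and PDE6G, the inhibitory subunit of rod phosphodiesterase, at 3.78% (3.6% to 3.96%). In N354 the percentages in Müller glia were 4.48% (4.02% to 4.98%) for GNAT1, 5.51% (5.28% to 5.75%) for GNGT1, 4.98% (4.19% to 5.87%) for GNB1 and 3.91% (3.63% to 4.20%) for SAG. Apart from the subunits, 6 other rod genes (SAG, PDE6A, PDE6B, CNGA1, PDE6G and NRL) ran from 2.90% (PDE6B) to 3.78% (PDE6G) in N350 and from 2.69% to 4.98%, of the same 2 genes, in N354. GNGT1 and GNB1 lay at or just above the highest of them, with intervals that overlapped that of PDE6G in both dogs. In ganglion cells of N350 GNB1 stood further from the other rod genes. It was at 6.45% (4.75% to 8.56%) of its rod level there, where GNAT1 was at 2.19% (1.55% to 3.0%), GNGT1 at 2.98% (2.52% to 3.50%) and SAG at 2.76% (2.34% to 3.23%). Of the 6 other rod genes, NRL alone, with 7 UMIs, had an interval that overlapped that of GNB1. In horizontal cells of N350 GNB1 was at 4.12% (3.22% to 5.19%) and GNAT1 at 2.52% (2.06% to 3.06%), but PDE6G at 3.31% (2.98% to 3.67%) overlapped with GNB1. The 26 amacrine cells of N354 held 15 UMIs of GNB1, 4.26% (2.38% to 7.04%) of its rod level, and 14 of GNAT1, 1.48% (0.809% to 2.49%), and these intervals overlapped. They also did in amacrine cells of N350, at 4.43% (3.69% to 5.28%) and 3.43% (2.99% to 3.90%). Horizontal cells of N354, at 1.86% (0.747% to 3.83%) and 0.494% (0.160% to 1.15%), had overlapping intervals as well. In N350, GNB1 was also at 9.45% (6.28% to 13.7%) in 30 vascular cells, where GNAT1 was at 4.92% (3.41% to 6.88%), GNGT1 at 7.69% (6.52% to 9.01%) and SAG at 4.55% (3.70% to 5.52%). Its 9 UMIs in 11 microglia made 12.6% (5.76% to 23.9%), where GNAT1 was at 4.80% (2.07% to 9.46%) and GNGT1 at 3.33% (1.90% to 5.41%). The higher percentage of GNB1 in ganglion cells rests on 48 UMIs in 24 cells of 1 dog, of which 1 cell held 10, and had no replicate. Its interval covers counting error only, not the spread between cells or the choice among classes.

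**Figure D5:**
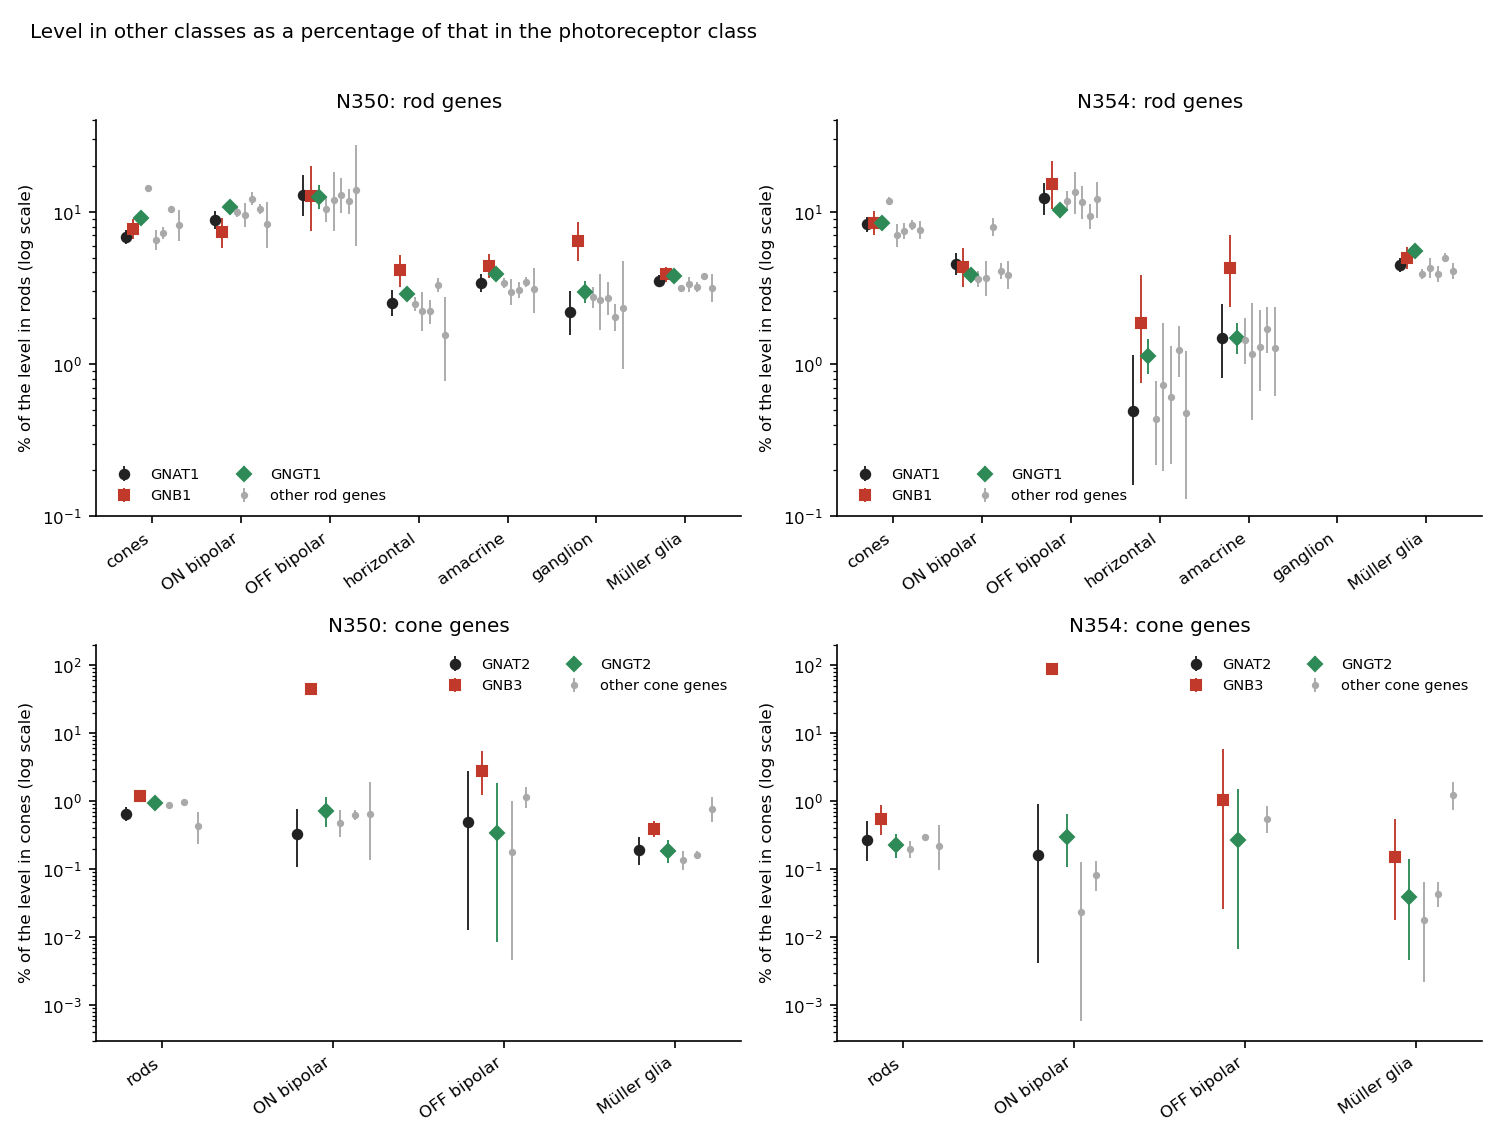
Level of each gene in other classes as a percentage of its level in rods (top, rod genes) or cones (bottom, cone genes), with 95% intervals from the counts of the class and log scales; genes with 0 UMIs in a class are not drawn. Grey points are SAG, PDE6A, CNGA1, PDE6G and NRL in the top row and ARR3, PDE6H and PDE6C in the bottom row. GNB3 stands alone at 44.8% and 86.1% in ON bipolar cells.

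GNB3 in ON bipolar cells was not matched by the other cone genes. It was at 44.8% (41.8% to 48.0%) of its cone level in N350 and at 86.1% (76.1% to 97.3%) in N354. GNAT2 in the same cells was at 0.330% (0.107% to 0.771%) and 0.162% (0.00411% to 0.907%) of its cone level, and GNGT2 at 0.715% (0.408% to 1.16%) and 0.297% (0.109% to 0.646%). Cone arrestin (ARR3) was at 0.478% (0.292% to 0.738%) and 0.0231% (0.000586% to 0.129%). The intervals of the GNB3 percentage did not overlap between the dogs. UMIs of GNB3 were present in 81.8% (76.7% to 86.2%) and 76.2% (70.4% to 81.4%) of ON bipolar cells, at median depths of 2677 and 2571, against 7.78% (5.88% to 10.1%) and 0.855% (0.104% to 3.05%) of the deeper Müller glia. After thinning to 1000 UMIs, which left out 12 and 14 ON bipolar cells and 37 and 60 cones, the share with a GNB3 UMI was 64.2% and 51.2% in ON bipolar cells and 87.6% and 57.7% in cones.

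In ON bipolar cells over rods GNB3 had a log2 fold change of 5.50 ± 1.43 with class as the only term, which did not pass (edgeR adjusted p = 0.0555), and of 5.78 ± 0.32 with the dog as a block, which did (edgeR adjusted p = 1.34e-15). DESeq2 called it at 5.77 ± 1.34 (DESeq2 adjusted p = 0.000318), and edgeR without the filter on low counts, with the stricter gate or without cells high in rod markers also did (edgeR adjusted p = 0.0408, 0.0325 and 0.0496). It did not pass without the highest Scrublet scores, at 5.61 ± 1.46 (edgeR adjusted p = 0.0511). In ON bipolar cells over cones GNB3 was at -0.96 ± 1.19 (edgeR adjusted p = 0.918), and with the block at -0.74 ± 0.25 (edgeR adjusted p = 0.0320), while GNAT2 at -8.54 ± 1.39 (edgeR adjusted p = 0.0149) and GNGT2 at -7.77 ± 0.97 (edgeR adjusted p = 0.00674) passed without it. So 2 of 6 genes passed there, both lower, where 1.38% of all genes were lower and 2.97% differed, and with the block 3 of 6 genes and 21.5% of all genes passed. The rod subunits GNAT1, GNB1 and GNGT1 were lower in ON bipolar cells than in rods, with log2 fold changes of -4.27, -4.42 and -4.42 (edgeR adjusted p = 0.00498, 0.00257 and 0.0202). These were 3 of 6 genes, all lower, where 2.57% of all genes were lower and 6.33% differed. With the block 4 of 6 genes and 33.1% of all genes were called, and with DESeq2 4 of 6 and 10.4%. Against cones the same genes did not pass in ON bipolar cells, with log2 fold changes from -0.72 to -0.43. For GNAT1 and GNGT1 the dogs differed in direction. In N350 both had higher levels in ON bipolar cells than in cones, at 2.80 against 2.16 and 9.87 against 8.27. In N354 both had lower levels, at 2.26 against 4.12 and 9.73 against 21.4.

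Among bipolar cells, both dogs had the higher GNB3 level in the ON type. The log2 fold change over OFF bipolar cells, which were gated on a single raised marker, was 4.96 ± 1.48 (edgeR adjusted p = 0.337). None of the 6 genes passed in edgeR, where 0.0497% of all genes did, and 1 had an unadjusted p under 0.05; in DESeq2 none passed, beside 1.22% of all genes, and 2 had one. With the dog as a block GNB3 passed at 5.18 ± 0.46 (edgeR adjusted p = 1.45e-09), as did 6.28% of all genes. Among ON bipolar cells, those with at least 2 UMIs of PRKCA, the protein kinase that marks rod bipolar cells, were compared with those with none. PRKCA was also a marker of the ON bipolar gate. Cells without it were shallower, with medians of 2101.5 against 3010 UMIs in N350 and 1759 against 2882 in N354. A count of 0 can thus also come from low depth. GNB3 was at 13.8 (12.9 to 14.8) in 189 cells with PRKCA and 7.89 (6.53 to 9.46) in 56 without it in N350, a ratio of 1.75 (1.44 to 2.15). In N354 it was at 7.14 (6.34 to 8.01) in 147 cells and 7.81 (6.21 to 9.71) in 51, a ratio of 0.913 (0.712 to 1.18), so the difference was found in 1 dog only. Cones were also split by their opsin, the pigment that sets their spectral range. Between 45 cones with the short-wave opsin OPN1SW and 144 with OPN1LW in N350, the ratio of levels was 0.947 (0.855 to 1.05) for GNAT2, 0.891 (0.815 to 0.974) for GNB3 and 0.976 (0.895 to 1.06) for GNGT2. In N354, with 15 and 115 cones, these ratios were 1.05 (0.835 to 1.32), 0.784 (0.586 to 1.03) and 1.07 (0.943 to 1.21). GNB3 was thus lower in cones with OPN1SW in both dogs, with an interval that excluded equality in N350 only. The rod subunits GNAT1 and GNGT1 differed too, with ratios of 2.34 (1.70 to 3.21) and 2.83 (2.42 to 3.31) in N350. In N354 they were at 0.258 (0.117 to 0.497) and 0.834 (0.691 to 0.999). The part of RNA from rods in the GNB3 ratio was not tested.

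Other subunits and the partners of transducin were followed in fixed lists. Of 14 other alpha subunits, 3 other beta and 10 other gamma subunits, 11, 3 and 8 were tested, and none passed between cones and rods in edgeR with class only, where 0, 1 and 1 had an unadjusted p under 0.05 and DESeq2 called 1 gamma subunit, GNG13. The medians of these lists were 0.03, 0.67 and 0.63 on the log2 scale, beside -0.26 over all genes. Of 9 partners, PDE6G and RIC8B, a chaperone of alpha subunits, were lower in cones, by log2 fold changes of -3.6 ± 0.49 (edgeR adjusted p = 0.0124) and -3.03 ± 0.42 (edgeR adjusted p = 0.0135). PDE6G was at 87.0 and 111 in rods and at 9.06 and 9.17 in cones, and RIC8B at 1.53 and 1.46 in rods and at 0.244 and 0.161 in cones. RGS9, which speeds GTP hydrolysis on the alpha subunit, and phosducin (PDC), which binds the beta and gamma dimer, were found in both photoreceptors. RGS9 was at 14.8 and 31.4 in rods and at 11.2 and 25.2 in cones, and PDC was at 119 and 135 in rods and at 75.3 and 76.3 in cones. With the dog as a block, 3 of 11 alpha, 2 of 3 beta and 3 of 8 gamma subunits and 6 of 9 partners passed between cones and rods, all 6 partners lower in cones, beside 27.8% of all genes in either direction.

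Against Müller glia, 5 of 9 partners were higher in rods, with RGS9, PDC, PDE6G and RIC8B the most, and 3 in cones (RGS9, PDC and PDE6D, which binds lipid-anchored proteins), with none lower. Of all genes, 6.29% were higher in rods and 3.36% in cones. With the dog as a block 9 of 9 and 8 of 9 partners were higher, beside 59.5% and 43.5% of all genes in either direction. RGS9 was higher by 4.53 ± 0.82 in rods (edgeR adjusted p = 0.00827) and by 4.04 ± 0.80 in cones (edgeR adjusted p = 0.0202). GNB5, the beta subunit that binds RGS9, was the one of 3 other beta subunits that passed with class only, by 3.79 ± 0.53 in rods (edgeR adjusted p = 0.00336) and 3.0 ± 0.52 in cones (edgeR adjusted p = 0.0122). With the block, GNB2 was also lower in rods (-4.26, edgeR adjusted p = 7.25e-13) and in cones (-3.67, edgeR adjusted p = 1.04e-09), and GNB4 higher in cones (4.21, edgeR adjusted p = 0.000201). Of 11 other alpha subunits, 3 passed with class only in each photoreceptor, all lower. Of all genes, 16.1% differed in rods and 7.47% in cones in either direction. GNAS, of the stimulatory G protein, and GNAI2 and GNAI3, of the inhibitory ones, were lower in rods than in Müller glia by log2 fold changes of -4.39, -3.84 and -1.76, and lower in cones as well. With the block 8 were lower and 1 higher in rods, and 7 lower and 1 higher in cones. The higher one was GNAZ in both, at 2.22 and 1.16 (edgeR adjusted p = 2.5e-07 and 0.00685). With class only, GNG12 was the gamma subunit lower in both, at -5.12 ± 1.0 in rods (edgeR adjusted p = 0.0108), and GNG13 was higher in cones by 2.51 ± 0.48 (edgeR adjusted p = 0.0174). With the block, 6 of 8 gamma subunits were lower and 1 higher in rods, and 4 were lower and 3 higher in cones.

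With class only, GNAO1 and GNG13 were the other subunits higher in ON bipolar cells than in rods, 1 of 11 alpha and 1 of 8 gamma subunits tested, where 6.33% of all genes passed in either direction. With the dog as a block, 2 alpha subunits were higher and 2 lower, and 5 gamma subunits higher and 1 lower, beside 33.1% of all genes, and DESeq2 called GNAS higher as well. GNG13 was at 32.0 (30.7 to 33.2) and 47.6 (45.9 to 49.4) in ON bipolar cells and at 0.322 (0.278 to 0.370) and 0.129 (0.0945 to 0.171) in rods, higher by 7.26 ± 0.58 on the log2 scale (edgeR adjusted p = 0.0015). GNAO1 was at 22.2 (21.2 to 23.3) and 9.50 (8.74 to 10.3) in ON bipolar cells, higher than in rods by 6.87 ± 1.28 (edgeR adjusted p = 0.0146). Both also passed over cones, at 5.46 ± 0.54 for GNG13 and 6.09 ± 1.24 for GNAO1 (edgeR adjusted p = 0.00314 and 0.0347). Over OFF bipolar cells neither passed with class only, where 0.0497% of all genes did. With the block both were higher there, beside 6.28% of all genes, and DESeq2 called GNG13 but not GNAO1, beside 1.22%. GNB3 was thus accompanied in ON bipolar cells by the alpha and gamma subunits of the Go trimer, where GNAT2 and GNGT2 stood at under 1% of their cone levels. Of the partners, 5 of 9 were lower in ON bipolar cells than in rods, with RGS9, PDE6G, PDC and RIC8B between -4.66 and -2.66 on the log2 scale, beside 2.57% of all genes lower, and 7 of 9 were lower with the block.

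The genes whose level followed each subunit most closely over 12 sums (6 classes in both dogs, each dog centred on its own mean) were taken outside the gate markers. For GNAT1 these were GNGT1 (r = 0.994), PDE6G (0.993) and SLC24A1 (0.992), the last being the sodium, calcium and potassium exchanger of rods. For GNGT1 they were PDE6G (0.997), GNAT1 (0.994) and CLUL1 (0.991), and for GNB1 CCDC126 (0.9897), TFPI2 (0.988) and SLC24A1 (0.987). TFPI2 is a neighbour of GNGT1 in the RefSeq annotation of the assembly UU_Cfam_GSD_1.0. GNAT2 was most like TCHHL1 (0.999), LY96 (0.997) and ATP6V1C2 (0.997), and GNGT2 most like LY96 (0.998), WNT11 (0.998) and SCIMP (0.998). GNB3 was least well matched, by GSG1L2 (0.9597), PDIA5 (0.949) and METTL9 (0.937). Among the 6 genes, the rod subunits correlated with each other at 0.967 to 0.994 and GNAT2 with GNGT2 at 0.992, while GNB3 correlated with GNAT2 at 0.704 and with GNGT2 at 0.713. The sums share libraries and cell classes, so these values are descriptions.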

How the data were processed

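The authors dissociated neuroretina of 2 dogs, prepared 10x 3′ v3.1 libraries and deposited raw UMI counts per gene and cell from Cell Ranger 6.0.2, per the file headers. The paper names canFam6, but N350 carries RefSeq-style names and N354 Ensembl identifiers, with 15224 names in both. The genes, lists and tests were chosen with earlier results of these data known.

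Cells with at least 200 genes were kept (5 left out in each dog), with no mitochondrial limit and doublets left in, since Scrublet's own threshold (scanpy 1.11.5) marked 0 and 1 cells. The paper instead states that it left out cells above 5% mitochondrial content and removed doublets with DoubletFinder, and does not name the mitochondrial genes. With under 5% on names that start with MT-, N350 kept all its 4853 rods and 335 cones. N354 then kept 1291 of 3009 rods and 0 cones. Here 63.5% of the cells of N350 and 69.0% of those of N354 had over 5% of their UMIs on 13 mitochondrial genes. In N354 these included all cones and all ON bipolar cells. A marker was raised with at least 2 UMIs and 3 times its rate over all cells, and a class needed 2 raised markers (1 for OFF bipolar cells). Rods were cells of no other class with at least 1% of UMIs on rod markers. Cones with OPN1SW had at least 3 of its UMIs and 5 times those of OPN1LW. Levels needed 10 cells and tests 20. UMIs were summed into 15 sums and tested over genes with at least 10 UMIs in edgeR 4.0.16 (TMM, R 4.3.3) at an adjusted p under 0.05, and checked on simulated data. From each list up to 4 genes with the largest passing fold change were named. Alternatives were DESeq2 1.42.0, no count filter, the dog as a block, mitochondrial limits, a stricter gate (3 UMIs, 1.5% rod markers) and removal of the 4% highest Scrublet scores. All sums of a dog come from the same animal, which pairs them: over 6 classes and 12068 genes, deviations correlated at 0.595 to 0.881 between classes.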

Additional observations from a re-analysis of the deposited data

How the results depend on the processing

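In the fits on both dogs, the 36 fold changes of the 6 genes kept their direction except where named here. Without cells high in rod markers, cones over Müller glia turned to -0.28 for GNAT1, -0.36 for GNB1 and -0.27 for GNGT1, and GNB1 was at -0.027 without the highest Scrublet scores. GNAT2 in ON over OFF bipolar cells, from 0.27, was at -0.011 in DESeq2 and -0.13 without cells high in rod markers. None of these passed in any fit. With the dog as a replicate block, the genes passing went from 3 to 6 of 6 in rods over Müller glia and from 0 to 1 in ON over OFF bipolar cells, and all genes called went from 203 to 3354 (cones over rods), 1942 to 7178 (rods over Müller glia), 901 to 5247 (cones over Müller glia), 764 to 3993 (ON bipolar cells over rods), 358 to 2593 (over cones) and 6 to 758 (over OFF bipolar cells). The block turned no direction of the 6 genes and changed no other call of theirs than those given above with their values. DESeq2 called 543 (cones over rods), 1722 (cones over Müller glia), 1259 (ON bipolar cells over rods), 780 (over cones) and 147 (over OFF bipolar cells). For ON over OFF bipolar cells the 6 edgeR calls were all higher, and DESeq2 called 56 higher and 91 lower.

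A limit of 10% on 13 mitochondrial genes left 49 cones in N354, 2 of 6 genes passing in cones over rods, and 126 (cones over rods) and 543 (cones over Müller glia) calls. GNAT1 at -3.44 and GNB1 at -3.25 (edgeR adjusted p = 0.0628 and 0.0538) no longer passed in cones over rods. It left too few ON bipolar cells for a test, and a limit of 5%, or under 5% on names that start with MT-, left 0 cones in N354 and no comparison with them. The stricter gate gave 0 calls in edgeR for ON over OFF bipolar cells, with 967 genes at an unadjusted p under 0.05. The mean log2 change of the GNAT1 to GNAT2 ratio between rods and cones went from 11.6 to 12.4 without the highest Scrublet scores and 12.7 without cells high in rod markers, and that of GNB1 to GNB3 from 10.6 to 11.4 and 11.7. Leaving cells high in rod markers out of cones, and not out of rods, partly builds in the rises to 12.7 and 11.7. Without 1 dog no spread remains and no test was run. Single dogs differed in direction for GNAT1 and GNGT1 in ON bipolar cells over cones. Values of ganglion cells, microglia and vascular cells rest on N350 alone, and no protein or read-level data were used.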
